A study of Caenorhabditis elegans with 4 samples.

Results

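The basement membrane genes of Caenorhabditis elegans, a nematode worm, were followed in adult RNA on microarrays. The 10 genes encode the type IV collagen chains (emb-9, let-2), the laminin chains (lam-1, lam-2, lam-3, epi-1), nidogen (nid-1), perlecan (unc-52), a type XVIII collagen (cle-1) and SPARC (ost-1). They were taken by gene symbol from the platform annotation, and all 10 had a probe, 1 each, among 14943 genes with a probe of their own. RNA from 4 preparations of wild-type adults (preps 1 to 4) was set against a wild-type mixed reference RNA, with 1 two-colour array for each prep. Channel 2 held the adult RNA and channel 1 the reference on every array, so a dye effect of a single gene cannot be told apart from a difference. The labels give neither the make-up of the reference nor the sex, culture or growth conditions of the adults.

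Basement membranes are thin sheets of extracellular matrix that line the gonad, intestine, pharynx, epidermis and body wall muscle. Type IV collagen and laminin each form a network, and nidogen and perlecan bind to these networks. In this worm the membranes carry load at muscle attachments and guide cell migration and gonad growth. Type IV collagen is made mainly by body wall muscle and some gonad cells and travels to other tissues, so the RNA and the protein need not lie in the same place.

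Each value below is a log2 ratio of adult RNA over reference RNA as deposited, so that 1 stands for a 2-fold difference. This direction is called likely and is not stated in the labels: it assumes the usual order of channel 2 (adults) over channel 1. If the ratio ran the other way, every sign would turn. Between 21243 and 21501 of 21632 probes had a value on each array, and arrays correlated over all probes with Pearson's r between 0.659 and 0.755. Preps 3 and 4 share a date in their array titles, and preps 1 and 2 each have a date of their own. The markers for adults were checked: all 8 germline and oocyte markers had positive ratios that passed the test, with a list median of 1.26. All 4 tested moulting markers had negative ones, with a list median of -2.51. The 3 yolk genes of the adult intestine had a median of 0.03 and none passed. The medians of the neuron, pharyngeal muscle and gonadal sheath or distal tip markers were -1.81, -0.86 and 0.05. Gene means ran from -2.62 to -0.31 in the neuron list and from -1.49 to -0.22 in the pharyngeal list. In the gonadal list they ran from -1.04 to 0.31. There ceh-18 passed with a negative ratio, and lag-2 was not analysed here.

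The first question was which of the 10 genes differed between adults and the reference. Nidogen RNA was about 2-fold higher in adults, and the laminin alpha gene lam-3 and the collagen gene cle-1 were lower. The other 7 genes did not pass the test and had both signs among the 4 arrays. They include both type IV collagen chains and perlecan. Genes were tested with limma over all genes, and a gene passed at a Benjamini-Hochberg adjusted p under 0.05. Of all 14935 genes tested, 23.2% passed with a positive and 21.2% with a negative ratio, against 1 and 2 of the 10 genes. The share of basement membrane genes that passed was therefore no larger than that of all genes (44.5%). In a bulk RNA, fewer cells of a type and less RNA per cell cannot be told apart.

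**Figure D1:**
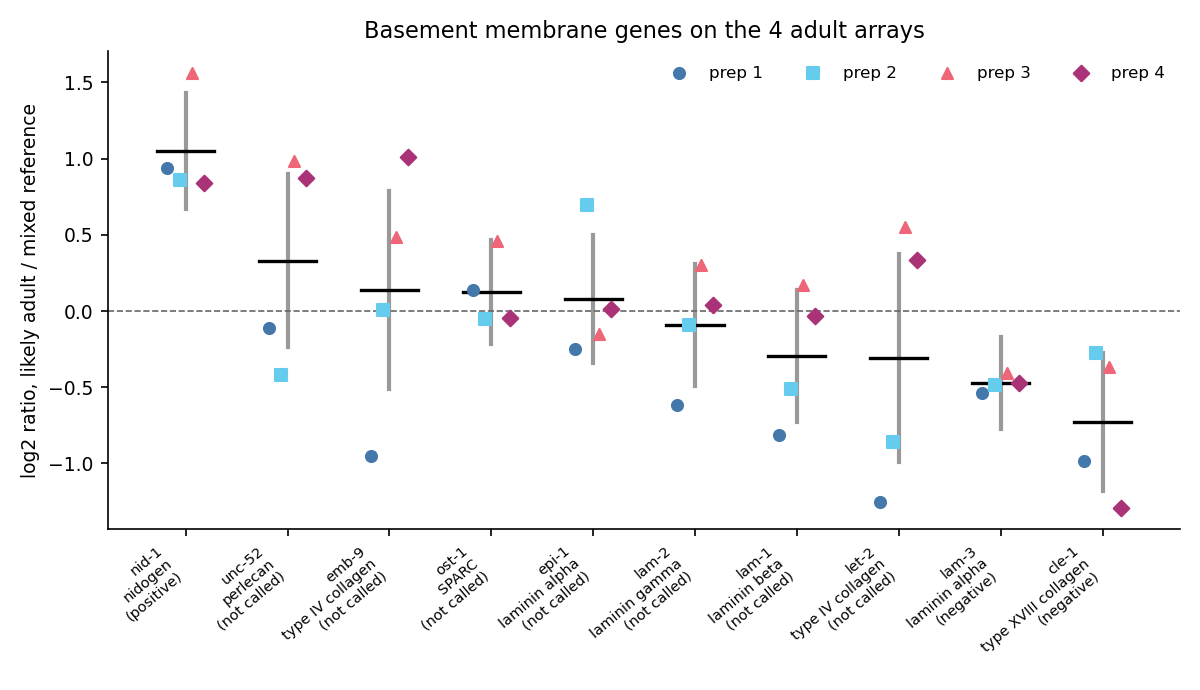
Log2 ratio, likely adult over mixed reference, of each basement membrane gene on the 4 arrays (points), with the mean (black bar) and limma's 95% confidence interval (grey line). All 4 points of nid-1 lie above 0 and all those of lam-3 and cle-1 lie below, while the points of emb-9, let-2 and unc-52 spread to both sides.

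Nidogen links laminin to type IV collagen. On preps 1 to 4 the log2 ratio of nid-1 was 0.94, 0.86, 1.56 and 0.84. All arrays were positive, with prep 3 above the rest, and the mean was 1.05 ± 0.35 (SD, n = 4), a 2.07-fold ratio. limma's 95% interval ran from 0.67 to 1.43 and the adjusted p was 0.0017. Leaving out any 1 prep kept the mean between 0.88 and 1.12, with limma's adjusted p at most 0.0073.

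Laminins are trimers of an alpha, a beta and a gamma chain, and this worm has the alternative alpha chains lam-3 and epi-1. For lam-3 the log2 ratio was -0.54, -0.48, -0.40 and -0.47 on preps 1 to 4. Its mean was -0.47 ± 0.05 (SD, n = 4), 1.39-fold lower in adults, with limma's adjusted p of 0.020. The SD over arrays was smaller than that of nearly all other genes, at percentile 0.7 of all genes tested. The difference lost its call without prep 1 (limma's adjusted p = 0.058), prep 2 (0.068) or prep 4 (0.051), at means between -0.47 and -0.45. In the fits on 3 arrays fewer of all genes passed, and the mean of lam-3 hardly moved. On preps 3 and 4 alone and on preps 1 and 2 alone, lam-3 did not pass either (limma's adjusted p = 0.20 and 0.097). Why the call was lost was not tested.

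The other alpha chain gene, epi-1, had log2 ratios of -0.25, 0.69, -0.15 and 0.01 on preps 1 to 4. Prep 2 stood alone on the high side, and the mean was 0.08 ± 0.42 (SD, n = 4; limma's adjusted p = 0.76). Within an array, the log2 ratio of epi-1 was above that of lam-3 by 0.29, 1.18, 0.25 and 0.49 on preps 1 to 4. The difference of 0.55 ± 0.43 (SD, n = 4) had one sign on all 4 arrays.

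The beta chain gene lam-1 had log2 ratios of -0.81, -0.51, 0.17 and -0.03 on preps 1 to 4. Its mean was -0.30 ± 0.45 (SD, n = 4; limma's adjusted p = 0.23). The gamma chain gene lam-2 had -0.61, -0.09, 0.30 and 0.04, with a mean of -0.09 ± 0.39 (adjusted p = 0.70). Both genes were lowest on prep 1 and highest on prep 3, and neither passed the test. These chains occur together in each laminin trimer. Their ratios stayed close within an array, since lam-1 minus lam-2 was -0.20, -0.42, -0.13 and -0.07, a mean of -0.21 ± 0.15 (SD, n = 4).

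Type IV collagen is a trimer of chains encoded by emb-9 and let-2. The log2 ratio of emb-9 was -0.95, 0.01, 0.49 and 1.01 on preps 1 to 4. That of let-2 was -1.25, -0.86, 0.55 and 0.33. Both genes were lowest on prep 1 and positive on preps 3 and 4. The means were 0.14 ± 0.84 for emb-9 and -0.31 ± 0.88 for let-2 (SD, n = 4; limma's adjusted p = 0.72 and 0.43). limma's 95% intervals were wide, from -0.51 to 0.79 for emb-9 and from -0.99 to 0.38 for let-2. These SDs lay at percentiles 96.7 and 97.3 of the SDs of all genes tested, where the median SD was 0.308. The log2 ratios of the chains differed less from each other than each did between arrays. On preps 1 to 4, emb-9 minus let-2 was 0.30, 0.87, -0.07 and 0.68, a mean of 0.44 ± 0.41.

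Perlecan is a large heparan sulfate proteoglycan that anchors body wall muscle to its basement membrane. The log2 ratio of unc-52 was -0.11, -0.42, 0.98 and 0.87 on preps 1 to 4. Preps 1 and 2 were below 0 and preps 3 and 4 well above it. The mean was 0.33 ± 0.70 (SD, n = 4; limma's adjusted p = 0.31), with a 95% interval from -0.24 to 0.90. RefSeq lists 17 transcripts for unc-52, and 2 for emb-9. No probe sequence was used here, so which transcripts a probe reads is unknown.

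Type XVIII collagen is a matrix collagen whose C-terminal fragment is known in vertebrates as endostatin. Its gene, cle-1, had log2 ratios of -0.98, -0.28, -0.37 and -1.29 on preps 1 to 4. All arrays were negative, with preps 1 and 4 the lowest. The mean was -0.73 ± 0.49 (SD, n = 4), 1.66-fold lower in adults, with limma's adjusted p of 0.018. Without prep 4 the mean was -0.54 and the call was lost (adjusted p = 0.069).

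SPARC is a collagen-binding glycoprotein. Its gene, ost-1, had log2 ratios of 0.13, -0.05, 0.46 and -0.04 on preps 1 to 4, highest on prep 3. Its mean of 0.12 ± 0.24 (SD, n = 4) did not pass the test (limma's adjusted p = 0.53).

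The second question was whether genes whose products act together differed from one another in their log2 ratios, which do not compare RNA amounts between genes. In the order of the mean log2 ratio, the genes were nid-1, unc-52, emb-9, ost-1, epi-1, lam-2, lam-1, let-2, lam-3 and cle-1. Of the neighbours in this order, nid-1 and unc-52 (0.72 ± 0.58) and lam-2 and lam-1 (0.21 ± 0.15) differed by more than the SD of their difference. All other neighbours differed by less. Differences of 7 pairs were tested within arrays by an exact two-sided sign-flip permutation test, which cannot go below p = 0.125 with 4 arrays. The pairs epi-1 minus lam-3, lam-1 minus lam-2 and cle-1 minus emb-9 had 1 sign on every array and reached that p (0.292 after Benjamini-Hochberg adjustment over the 7 pairs). The difference cle-1 minus emb-9 was -0.87 ± 1.02, and it ran from -0.03 on prep 1 to -2.30 on prep 4. The log2 ratio of nid-1 exceeded that of emb-9 by 0.91 ± 0.85, on 3 of 4 arrays (exact permutation p = 0.25, adjusted 0.35). The pair emb-9 minus let-2 had the same p-values. The differences of unc-52 and ost-1 from emb-9 were 0.19 ± 0.58 and -0.01 ± 0.88 (exact permutation, adjusted p = 0.729 and 0.875). With 4 arrays the test could separate no pair. Without prep 4, cle-1 minus emb-9 was -0.39. Leaving out 1 prep moved ost-1 minus emb-9 between -0.38 and 0.33.

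The third question was how the genes varied among the 4 adult preps. This split of the preps by title date was examined after the values had been seen, and no test was made of it. Type IV collagen, perlecan and the laminin beta and gamma genes were all higher on preps 3 and 4 than on preps 1 and 2, with no overlap. The mean log2 ratio of let-2 was 0.44 on preps 3 and 4, against -1.06 on preps 1 and 2, a difference of 1.499. For emb-9 the means were 0.75 and -0.47, a difference of 1.22, and for unc-52 they were 0.93 and -0.27, a difference of 1.19. For lam-1 they were 0.07 and -0.66, and for lam-2 0.17 and -0.35. The small difference of lam-3, 0.07, also had no overlap, which made 6 of 10 genes against 19.0% of all 14639 genes with values on every array. None of the 10 genes lay lower on both preps 3 and 4, against 20.2% of all genes. The differences of let-2, emb-9 and unc-52 stood at percentiles 99.8, 99.3 and 99.2 of all genes, and those of lam-1 and lam-2 at 95.7 and 90.0. The median difference over all genes was 0.00 to 2 decimals (-0.000213).

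**Figure D2:**
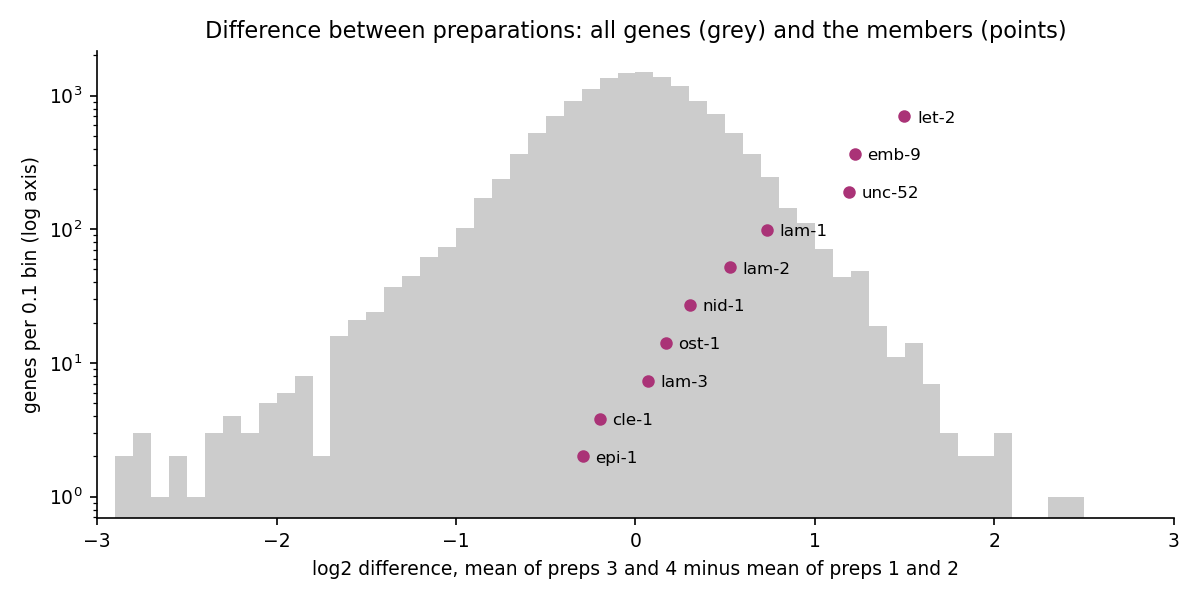
Histogram (log axis, bins of 0.1) of the log2 difference between the mean of preps 3 and 4 and the mean of preps 1 and 2 for all genes with values on every array, with the basement membrane genes as points at their differences and at arbitrary heights. The points of let-2, emb-9 and unc-52 lie in the right tail, between 1.19 and 1.499, and epi-1 and cle-1 are the 2 members left of 0. The axis ends at 3 in either direction, which leaves out 7 genes.

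Fits on part of the preps gave other calls, and they restate the split above rather than test it. Fitted on preps 3 and 4 alone, unc-52 passed at 0.93 and emb-9 at 0.75 (limma's adjusted p = 0.0024 and 0.016), along with nid-1 at 1.20 (4.8e-05), and cle-1 passed with a negative ratio at -0.83 (0.0074). In that fit 17.6% of all genes passed with a positive ratio and 15.3% with a negative one. Fitted on preps 1 and 2 alone, a choice made after the values were seen, let-2 passed with a negative ratio at -1.06 (adjusted p = 0.021) and nid-1 with a positive one at 0.90 (0.025). There 14.0% of all genes passed with a positive and 14.9% with a negative ratio. The fits on 2 arrays borrow most of their spread from other genes. Of the 10 genes, only nid-1 passed on all 4 arrays together, on preps 3 and 4, and on preps 1 and 2.

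By the median difference of their genes, body wall muscle markers were also higher on preps 3 and 4, as were other marker lists. The body wall muscle list held 7 genes, all tested. Its median log2 ratio was -0.03 on prep 3 and 0.15 on prep 4, against -1.22 on prep 1 and -0.20 on prep 2. The summed linear ratio of the 7 genes was 7.95 and 8.41 on preps 3 and 4, against 3.74 and 6.84 on preps 1 and 2. For 4 of the 7, both of preps 3 and 4 lay above preps 1 and 2, against 19.0% of all genes. The median difference between these preps was 0.58 for the body wall muscle list, 0.83 for the 3 yolk genes and 0.43 for the germline and oocyte markers. It was 0.23 for the moulting, 0.15 for the pharyngeal, 0.12 for the gonadal and 0.12 for the neuron markers. The yolk median was -0.03 on prep 3 and 1.49 on prep 4, against -0.21 and -0.56 on preps 1 and 2. The yolk genes vit-2 and vit-6 were lowest on prep 3. Germline medians were 1.29 and 1.86 on preps 3 and 4, against 0.91 and 1.21 on preps 1 and 2. Both preps lay above for 3 of 8 germline, 3 of 5 neuron and 1 of 3 yolk genes. They did so for 1 of 6 pharyngeal, 1 of 4 gonadal and 1 of 4 moulting markers. Both preps lay below for 1 pharyngeal and 1 neuron gene, against 20.2% of all genes. The muscle myosin gene unc-54 had 0.05 and 0.47 on preps 3 and 4, against -1.83 and -0.66 on preps 1 and 2. This was the largest difference of the list, 1.51. Prep 2 lay above prep 4 for myo-3 (0.29 against 0.04), and above prep 3 for unc-89 (-0.20 against -0.36). For hlh-1, prep 2 lay just above prep 3 (-0.5585 against -0.5606). The genes unc-54, myo-3 and unc-89 were named after their values were seen. By the mean over all arrays, the troponin I gene unc-27 had the largest positive ratio of the list (0.78 ± 0.41, limma's adjusted p = 0.0090). The muscle transcription factor gene hlh-1 had the largest negative one (-0.62 ± 0.16, adjusted p = 0.0080). The part of RNA from muscle, the germline or any other of these tissues in the ratios of the collagen and perlecan genes was not tested.

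**Figure D3:**
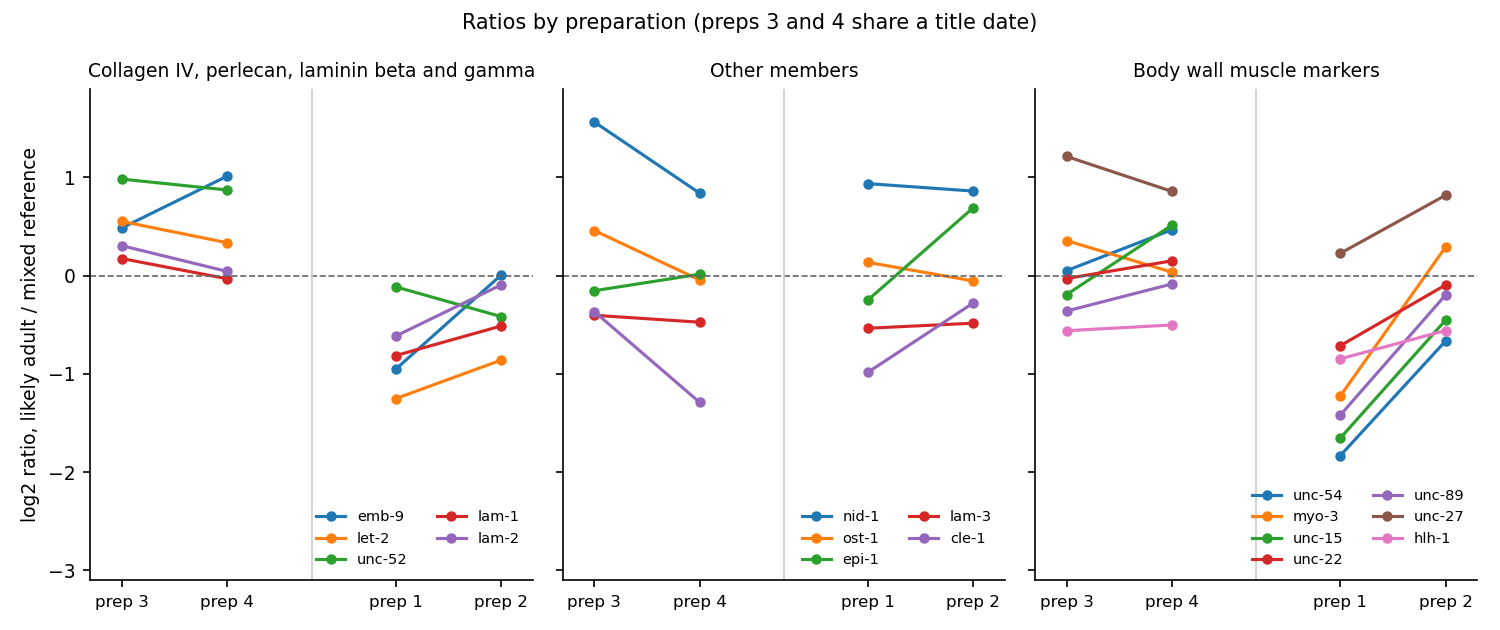
Log2 ratio, likely adult over mixed reference, on preps 3 and 4 (left of each panel) and preps 1 and 2 (right), for the 5 basement membrane genes with the largest differences between these preps, the other 5 members, and the 7 body wall muscle markers. In the left panel every gene is lower on both preps 1 and 2, and prep 1 is the lowest array of every muscle marker in the right panel.

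Set against the muscle median of the same array, emb-9 was positive on all arrays, at 0.27, 0.20, 0.52 and 0.86 on preps 1 to 4. The SD over arrays was then 0.30, against 0.84 for the ratio itself. For let-2 the SD was 0.52 against 0.88, for lam-1 0.34 against 0.45, for lam-2 0.31 against 0.39 and for unc-52 0.61 against 0.70. For the other 5 genes it was larger than that of the ratio itself, for example 0.58 against 0.05 for lam-3 and 0.64 against 0.35 for nid-1. Relative to muscle, nid-1 stayed positive on every array (1.38 ± 0.64), while let-2 averaged 0.02 ± 0.52. Prep 1 carried the lowest body wall muscle median. The 5 genes with a smaller SD were those with the largest differences between preps 3 and 4 and preps 1 and 2. Subtracting a median of a similar course tends to lower their SD and to raise that of a gene that hardly varies, such as lam-3. No other marker list was subtracted in this way, and the source of the shared course was not tested. The median of the pharyngeal muscle markers was -0.86 and -0.65 on preps 3 and 4, against -0.84 and -0.86 on preps 1 and 2.

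The genes most like the type IV collagen pair over the 4 arrays were sought among 14629 others, by the root mean square difference from the array-wise mean of emb-9 and let-2. The closest was akap-1, named for an A kinase anchor protein, at 0.172. The ubiquitin ligase genes ubr-4 and ubr-1 followed at 0.204 and 0.205. In the same measure emb-9 and let-2 each lay 0.286 from their own mean.

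The fourth question was how genes that build, bind or cut basement membranes compared with the 10 structural genes. The 5 lists hold 48 genes, of which 45 were tested, and let-268, zmp-1 and hst-6 were not analysed here. Of the 45, 14 passed with a negative and 4 with a positive ratio, against 21.2% and 23.2% of all genes. The median of their mean ratios was -0.20, against 0.06 over all genes and -0.01 over the 10 structural genes. The calls among matrix components and receptors were negative and those among heparan sulfate enzymes positive, and differences between lists were not tested. Without prep 1, 1 receptor was called positive. The heparan sulfate enzymes had 0 calls after centring, and 0 without prep 2, prep 3 or prep 4.

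Of 12 other matrix components, 4 passed, all negative, against 44.5% of all genes in either direction and 21.2% with a negative ratio. Netrin, the guidance cue encoded by unc-6, had the lowest mean at -1.32 ± 0.23 (SD, n = 4), 2.50-fold lower (limma's adjusted p = 3.2e-04). Its values on preps 1 to 4 were -1.43, -1.60, -1.13 and -1.12. The gene agr-1, which encodes agrin, known in vertebrates as a heparan sulfate proteoglycan, followed at -1.04 ± 0.52 (adjusted p = 0.0043). The remaining calls were the fibulin gene fbl-1 at -0.60 ± 0.20 (adjusted p = 0.011) and the F-spondin gene spon-1 at -0.42 ± 0.21 (adjusted p = 0.046), both named after their values were seen.

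Of 11 receptors, 4 passed, all negative, against 44.5% of all genes in either direction and 21.2% with a negative ratio. The discoidin domain receptor gene ddr-2, whose vertebrate relatives bind collagen, had -1.01 ± 0.30 (SD, n = 4; limma's adjusted p = 0.0016). The netrin receptor gene unc-5 had -0.97 ± 0.17 (adjusted p = 0.0011). Integrins bind laminin or other matrix proteins as an alpha and a beta chain. The alpha chain gene pat-2, which acts in muscle attachment, had -0.67, -0.44, -0.91 and -0.85 on preps 1 to 4, a mean of -0.72 ± 0.21 (adjusted p = 0.0051). Its values were negative on every array. The other alpha chain gene, ina-1, had 0.17 ± 0.13 (adjusted p = 0.35), and the shared beta chain gene, pat-3, had -0.10 ± 0.42 (adjusted p = 0.67). The dystroglycan gene dgn-1 had 0.09 and -0.07 on preps 3 and 4, against -0.70 and -0.60 on preps 1 and 2, with a mean of -0.32 ± 0.39 (adjusted p = 0.17). The remaining call was the receptor phosphatase gene ptp-3, which acts in axons and at synapses, at -0.54 ± 0.36 (adjusted p = 0.031), named after its value was seen.

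Against 44.5% of all genes (21.2% with a negative ratio), 2 of 5 tested genes for collagen modification or secretion passed, both negative. These were the prolyl 4-hydroxylase genes phy-2 at -1.85 ± 0.30 (SD, n = 4), 3.62-fold lower (limma's adjusted p = 9.3e-05), and dpy-18 at -0.67 ± 0.29 (adjusted p = 0.010). Both enzymes are known to act on cuticle collagens, and cuticle synthesis peaks at larval moults. The moulting markers were also negative, with array medians from -2.83 to -2.03, and their part in these values was not tested.

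Of 12 tested proteases and inhibitors, 4 passed with a negative and 2 with a positive ratio, against 21.2% and 23.2% of all genes. The matrix metalloprotease gene zmp-2 had -1.74 ± 0.33 (SD, n = 4; limma's adjusted p = 1.4e-04) and the ADAMTS protease gene adt-2 had -0.81 ± 0.13 (adjusted p = 0.0022). Both homologs of tissue inhibitors of metalloproteases, cri-2 and timp-1, were negative as well, at -0.68 ± 0.35 and -0.49 ± 0.20 (adjusted p = 0.012 and 0.024). The positive calls were the ADAMTS genes adt-1 at 0.68 ± 0.34 and mig-17 at 0.45 ± 0.15 (adjusted p = 0.011 and 0.028). MIG-17 remodels the gonadal basement membrane during distal tip cell migration. These last 4 genes were named after their values were seen. Of 5 tested heparan sulfate enzymes, the chain-elongating rib-2 (0.54 ± 0.44) and the epimerase hse-5 (0.40 ± 0.16) passed with a positive ratio (adjusted p = 0.044 and 0.047). Neither passed once the arrays were centred on their medians, which left 2 positive calls over the 5 lists.

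**Figure D4:**
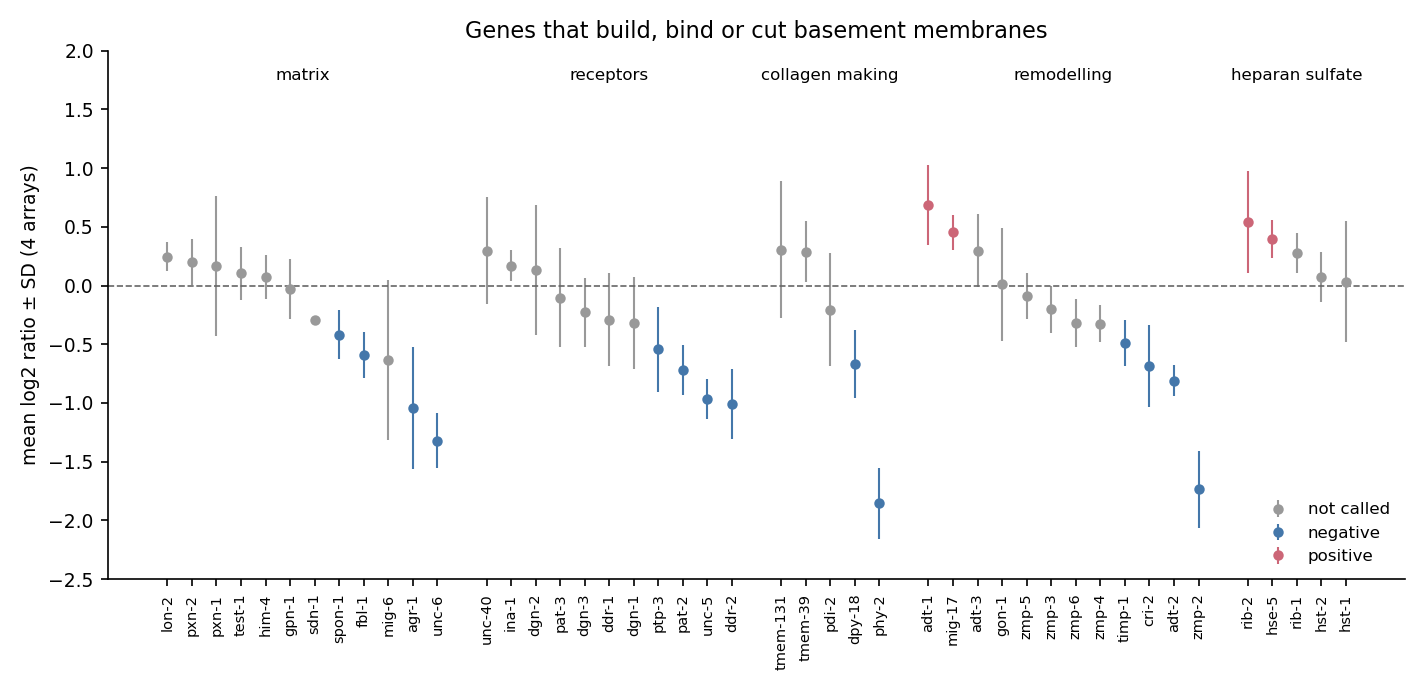
Mean log2 ratio, likely adult over mixed reference, with the SD over 4 arrays, for the 45 tested genes in 5 lists, coloured by limma's call. Negative calls are found in the matrix, receptor, collagen making and remodelling lists, and the 4 positive calls lie in the remodelling and heparan sulfate lists.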

How the data were processed

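The authors deposited 1 table of log2 ratios per probe and array. The sources used here give no scanner, dye, background correction, filter or normalization. The log2 base was read from the deposited values, since 2 to the value gives a ratio with 3 decimals (within 1e-05) for at least 99.934% of spots. Array medians ran from -0.0043 to 0.0496. Centring by the authors and the numerator of the ratio are unknown. Without signal intensities, spots near background cannot be found, and the depth behind a value is unknown. At such spots a ratio can be drawn towards 0 if no background was subtracted.

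Of 21632 probes, 16450 had 1 gene symbol, 247 several and 4935 none in the platform annotation. Symbols were taken from RefSeq (WBcel235) by gene ID for 16360 probes and by accession for 8, whether or not they differed from the annotation. Probes of a gene were averaged on each array. Coordinates are left out, since the platform names no build. With a minimum of 3 arrays per gene, limma 3.58.1 (R 4.3.3) fitted an intercept (lmFit, eBayes), two-sided against 0, with Benjamini-Hochberg adjustment over 14935 genes. The fit was tested on simulated data. Variation of the reference itself is not in this test. Whether preps came from separate cultures is not stated, and the p-values cover the spread between preps alone. Differences between pairs used an exact sign-flip test in scipy 1.17.1.

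The members, lists and tests were chosen with earlier results of these data known. Named genes are every member, the 2 largest means of each list, the integrin genes and dgn-1, up to 2 genes of each marker list and the 3 genes most like the collagen pair; others are marked where they appear. Alternatives were array centring and scaling, the minimum number of arrays, the probe summary, the prior, array weights, the title date as a block, a minimum size and leaving out each prep. The title date block used a consensus correlation of 0.012 from limma's per-gene mixed model, since its own function returns none for this layout.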

Additional observations from a re-analysis of the deposited data

Results flagged for a closer look

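In 29 sets of 4 array values, each of a gene, a list median or a pair difference, 2 had 1 array far from its neighbours, where chance gives about 1.45. Prep 3 had the highest log2 ratio of nid-1, 1.56, and the other arrays ran from 0.84 to 0.94. Without prep 3 the mean of nid-1 was 0.88 (limma's adjusted p = 0.0073). Prep 4 had the highest median of the pharyngeal muscle markers, -0.653, while the others ran from -0.861 to -0.84.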

How the results depend on the processing

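On all 4 arrays, the 10 genes kept direction and call under 9 other settings of the fit. Of these, 4 (centring, scaling, array weights and the date block) can move a mean, and 5 change only the p of a gene with 1 probe and 4 values. On preps 3 and 4 alone, emb-9 and unc-52 were called at 0.75 and 0.93, lam-3 lost its call at -0.44, and let-2, lam-1, lam-2 and epi-1, none of them called, changed sign to 0.44, 0.071, 0.17 and -0.070. That made 3 positive calls and 1 negative call. On preps 1 and 2 alone, a choice added after seeing the data, let-2 was called at -1.06, lam-3 and cle-1 lost their calls at -0.51 and -0.63, and emb-9 and unc-52 changed sign to -0.47 and -0.27, with 1 negative call. Leaving out 1 prep gave emb-9 from -0.15 to 0.50, let-2 from -0.59 to 0.0089, lam-2 from -0.22 to 0.084, epi-1 from -0.13 to 0.18, unc-52 from 0.11 to 0.58, lam-1 from -0.45 to -0.12, ost-1 from 0.012 to 0.18, lam-3 from -0.50 to -0.45 and cle-1 from -0.88 to -0.54. The number of negative calls was then 0 to 2 and that of positive calls 1 throughout; without prep 4 it was 0, as limma lost both lam-3 (adjusted p = 0.051) and cle-1 (0.069). A minimum size of 1 left 0 negative calls by construction.

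Over the 5 lists together, positive calls were 2 after centring and 2 after centring and scaling, 1 to 3 when 1 prep was left out (1 without each of preps 2, 3 and 4), 0 on preps 1 and 2 alone and 0 with a minimum size of 1. That size left 5 negative calls. Of 160 counts of single lists, 26 moved by over 1.5 times. None of 63 recomputed pair differences moved by more than its SD, but this outcome was nearly fixed in advance. Leaving out arrays cannot move a mean of 4 values by its SD. Centring and the probe summary cannot change a difference within an array between genes with 1 probe each. For example, ost-1 minus emb-9 was -0.54 on preps 3 and 4 alone and 0.51 on preps 1 and 2 alone. Leaving out 1 prep gave cle-1 minus emb-9 from -1.15 to -0.39, nid-1 minus emb-9 from 0.59 to 1.27, epi-1 minus lam-3 from 0.34 to 0.65, emb-9 minus let-2 from 0.30 to 0.61, lam-1 minus lam-2 from -0.25 to -0.13, unc-52 minus emb-9 from -0.02 to 0.40 and ost-1 minus emb-9 from -0.38 to 0.33. Where a sign turned, the cause was not tested. No pairing of preps between groups was possible because the labels give 1 group. Signal over background is unknown, and the 4 arrays limit the precision.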
